A study of Mus musculus with 2 samples.

Results

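The 10 genes examined here are chaperones of the endoplasmic reticulum (ER) and components of the integrated stress response: the chaperones Hspa5, Hsp90b1, Pdia3, Pdia4, Calr and Canx, the transcription factors Xbp1, Atf4 and Ddit3, and the translation regulator Impact. They were taken by name from the array's annotation, in which 11 of the 12418 probe sets carry exactly 1 of these symbols, and they are 10 of the 8251 genes with such a probe set. The set was chosen on earlier readings of these same control and PS cDKO intensities, so that the values of its genes are a description and carry no test. Total RNA of mouse cerebral cortex was hybridised to 2 oligonucleotide arrays, 1 for mice with a conditional double knockout of the presenilins (PS cDKO) and 1 for their controls, both 6 months old. No source used here gives the alleles, the promoter driving the deletion, the strain, the sex or the number of animals behind each array. With 1 array per genotype there is no replicate, no p-value and no interval for any difference between the genotypes.

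Secretory and membrane proteins fold in the ER with the help of chaperones, and unfolded protein there activates the unfolded protein response. Its sensors IRE1, PERK and ATF6 act through the factors XBP1, ATF4 and cleaved ATF6, which raise transcription of chaperone genes. PERK, with the kinases GCN2, PKR and HRI, phosphorylates the initiation factor eIF2, and the resulting brake on translation with induction of ATF4 is the integrated stress response. Presenilins are themselves membrane proteins of the ER and later compartments and form the catalytic core of γ-secretase.

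Chaperone genes are induced through a composite ER stress response element, and the promoters of the members were searched for it because it links the chaperones to the factors among them. The element was written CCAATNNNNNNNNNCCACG, where N is any base, and both strands of the 250 bases before each RefSeq start were searched (assembly GRCm38.p6). A match is a description of the sequence and not a binding site. Of 32851 such windows 37 (0.113%) held it, among them those of 4 chaperones of the 9 members with a promoter in the table used: Hspa5, Hsp90b1, Calr and Canx. The matched stretches are shown 5′ to 3′ on the strand of the gene. Capitals mark the 5 fixed bases at each end of an element, which read CGTGG and ATTGG where it lies on the opposite strand.

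Hspa5, chr2:34772010-34772058, plus strand: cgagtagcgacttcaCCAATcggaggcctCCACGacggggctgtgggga
Hsp90b1, chr10:86705518-86705671, minus strand: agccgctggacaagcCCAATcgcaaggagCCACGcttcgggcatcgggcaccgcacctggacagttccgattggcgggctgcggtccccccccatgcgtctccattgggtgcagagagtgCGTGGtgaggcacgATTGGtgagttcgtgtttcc
Calr, chr8:84847060-84847108, minus strand: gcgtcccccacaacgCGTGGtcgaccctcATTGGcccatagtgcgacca
Canx, chr11:50325785-50325833, minus strand: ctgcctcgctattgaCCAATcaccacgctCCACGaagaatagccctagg

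The element of Hspa5 ended 47 bases before the start and that of Calr 144 bases before it. Hsp90b1 held 2 elements, on opposite strands. The shorter TGACGTG element of ATF6 and XBP1, found in 1.65% of windows, was matched in Hspa5 alone of the members. The element TGATGNAA of C/EBP-ATF dimers, through which ATF4 acts, occurred in 3.45% of windows and in 0 of the 9. The letters of neither Pdia3 nor Pdia4 matched any of these motifs in this window.

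Values below are array intensities, on a linear scale. The PS cDKO array was multiplied by a common factor, 0.034 on the log2 scale. This set the median log2 ratio to 0 over probe sets above the median rank on both arrays. An intensity below 232, the 40th percentile of both arrays pooled, is called below the floor. No ratio is given for a gene below it on both arrays, and a bound, counted from the floor itself, for a gene below it on 1. Log2 ratios are PS cDKO over control. Of the 10 members 8 were above the floor on both arrays, and Pdia4 and Ddit3 were below it on both. An intensity depends on the probes as well as on the transcript, so an intensity is not read as the level of one transcript relative to another.

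The measured chaperones did not share a direction: Pdia3, Hspa5 and Canx had higher and Hsp90b1 and Calr lower intensities on the PS cDKO array. Their median log2 ratio was 0.12, against 0.01 over all 5885 measured genes. That order turned with the floor: the chaperone median was 0.015 against 0.028 over all genes when the floor was lowered to the 20th percentile, and 0.015 against 0.045 without a floor. The chaperone median moved because Pdia4, with a log2 ratio of -0.09, was then counted. The ratios of the other chaperones stayed as they were. The factors were likewise divided, with Xbp1 higher and Atf4 lower. The ratios of Canx, Hsp90b1 and Atf4 were each smaller in size than 0.21, the probe set SD given below. Their signs are therefore not read as a difference. Impact differed most of all members. At 1.5-fold or more higher there were 2 members, Pdia3 and Impact, where 1.12% of all measured genes were. None of the 8 was 1.5-fold or more lower, against 0.816% of all measured genes. The balance over all genes, 66 higher and 48 lower, was 51 higher and 66 lower with the intensities as deposited. At 2-fold or more there was Impact alone, against 0.102%. At a smaller threshold, a log2 ratio of 0.32 or more, there were 3, with Hspa5 added, against 8.05%, and 0 were at -0.32 or less, against 8.36%. The shares over all measured genes include 471 genes with a bound, whereas all 8 measured members were above the floor on both arrays. Because the members were chosen with these values known, nothing is read from these counts.

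**Figure D1:**
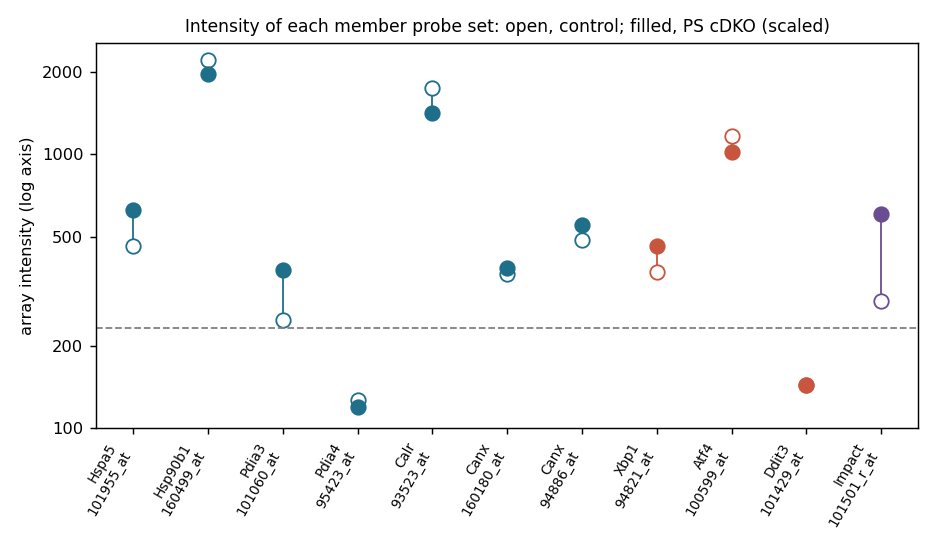
Array intensity (log axis) of each of the 11 member probe sets, in the control (open circle) and the PS cDKO after scaling (filled circle), with chaperones in blue, transcription factors in red, Impact in purple and the floor of 232 as a dashed line. Impact has the widest gap, 292 against 603, while Pdia4 and Ddit3 lie below the floor on both arrays; the open circle of Ddit3 is hidden behind the filled one.

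Pdia3 (ERp57), the thiol oxidoreductase that works with calreticulin and calnexin on glycoproteins, had the largest ratio of the chaperones. Its probe set 101060_at read 247 on the control and 376 on the PS cDKO array, a log2 ratio of 0.61 or 1.52-fold. Of the 5414 genes that exceeded the floor on both arrays 37, or 0.683%, were as far or farther in that direction, Pdia3 included. The control reading was only 1.07 times the floor. With the intensities as deposited Pdia3 was 1.49-fold, with quantile normalization 1.47-fold and after lowess 1.46-fold higher, so that it passed 1.5-fold only under the common scaling.

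Hspa5 (BiP), the ER member of the Hsp70 family that binds unfolded chains and holds the stress sensors inactive, was also higher. Probe set 101955_at read 462 on the control and 628 on the PS cDKO array, a log2 ratio of 0.44 or 1.36-fold. As many as 160 of the 5414 genes, 2.96%, were as far in that direction. Its ratio stayed between 0.41 and 0.44 under 8 other settings of scaling, floor and probe set choice.

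Hsp90b1 (GRP94), the ER member of the Hsp90 family, was slightly lower on the PS cDKO array. Its promoter holds the same element as that of Hspa5. Probe set 160499_at read 2213 on the control and 1974 on the PS cDKO array, a log2 ratio of -0.16. That is smaller than 0.21, the SD of the ratio of 1 probe set estimated from 749 genes with a pair of probe sets. Both probe sets of a pair were read on the same arrays, so this SD leaves out any variation that they share, such as that between animals. It is not a replicate error, and a ratio above it is not thereby shown to differ between the genotypes. The ratios of Hspa5 and Hsp90b1 differed by 0.61 on the log2 scale.

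Calr (calreticulin), the soluble lectin chaperone and a main calcium-binding protein of the ER, had the lowest ratio of the members. Probe set 93523_at read 1743 on the control and 1411 on the PS cDKO array, a log2 ratio of -0.30, or 1.23-fold lower. Of the 5414 genes 9.64% were as far in that direction. After lowess, which removes the trend of the ratio with signal, the ratio was -0.24.

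Canx (calnexin), the membrane-bound counterpart of calreticulin, was the one member with more than 1 probe set. Probe set 160180_at read 366 and 383 and probe set 94886_at read 487 and 551 on the control and the PS cDKO array, with log2 ratios of 0.06 and 0.18. Both lay on the same side of 0, and both were below the SD of 0.21. The sign of Canx is therefore not set against that of Calr. Pdia3, the partner of both lectins, differed from Calr by 0.91 on the log2 scale. Pdia4 (ERp72), a further disulfide isomerase, read 127 on the control and 119 on the PS cDKO array, both below the floor.

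Xbp1, the factor whose messenger RNA is spliced by IRE1, was higher. Probe set 94821_at read 373 on the control and 461 on the PS cDKO array, a log2 ratio of 0.31 or 1.24-fold, and 8.57% of the 5414 genes were as far in that direction. The deposited value is a single intensity and does not separate the spliced from the unspliced form. When the floor was raised to the 60th percentile, the control reading lay below it and the bound was 0.19.

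Atf4, the main factor of the integrated stress response and regulated largely through its translation, was slightly lower. Probe set 100599_at read 1163 on the control and 1021 on the PS cDKO array, a log2 ratio of -0.19, which is within the SD of 0.21. Xbp1 and Atf4 differed by 0.49. Ddit3 (CHOP), the pro-apoptotic factor induced late in ER stress, read 143 and 144 and was below the floor on both arrays.

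Impact is an imprinted gene abundant in neurons whose product competes with GCN2 for its activator GCN1 and so restrains this branch of the stress response. Its probe set 101501_r_at read 292 on the control and 603 on the PS cDKO array, a log2 ratio of 1.05 or 2.07-fold. Among the 5414 genes that exceeded the floor on both arrays it ranked 3, after the astrocyte filament Gfap and the complement chain C1qa, which ranked first and second. Among the 1083 genes of its own signal class, when the genes were divided by signal into 5 classes, it ranked 1. For other members the share of their own class as far in their direction was 0.831% for Pdia3 and 2.87% for Hspa5. It was 11.2% for Xbp1 and 15.1% for Calr.

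The suffix r in that identifier marks a probe set for which the usual rules of probe selection were relaxed. Of 381 such probe sets measured on both arrays 1.57% were 1.5-fold or more higher, against 1.03% of 5707 probe sets with no suffix. At 2-fold or more there were 2 of the 381 (0.525%), Impact and a probe set of the connexin Gja1, and 1 of the 5707 (0.0175%), that of C1qa. Impact itself is counted in both shares of the 381, and the probe sets at 2-fold are very few. Nothing about the ratio of Impact is read from these shares. Gja1, named after its values were seen, has a further probe set, and the log2 ratios of the pair were 1.08 and 0.02. Impact has no second probe set with which its ratio could be compared. When the floor was raised to the 60th percentile, its control reading lay below it and the log2 ratio was at least 0.58.

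**Figure D2:**
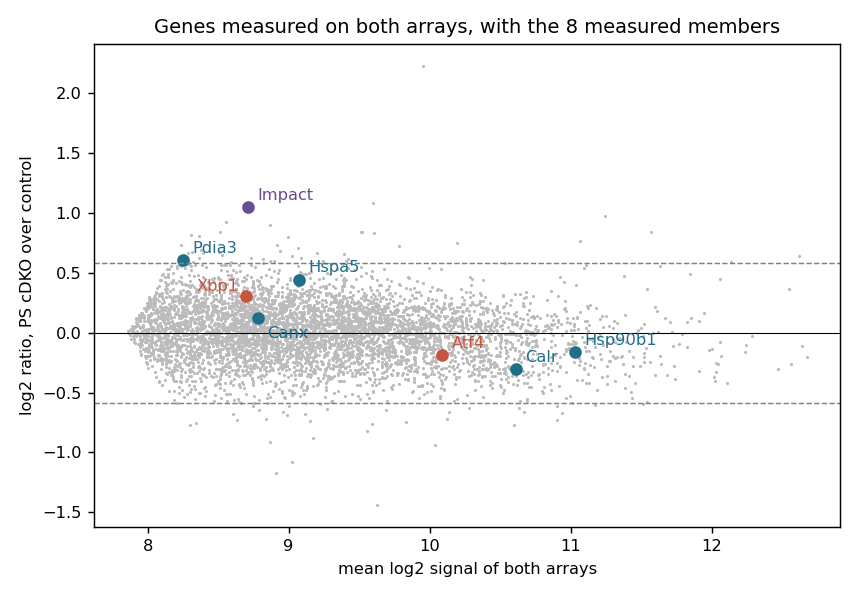
Log2 ratio (PS cDKO over control) against mean log2 signal for the 5414 genes that exceeded the floor on both arrays (grey), with the 8 measured members in colour (chaperones blue, factors red, Impact purple); dashed lines mark 1.5-fold. Impact lies at 1.05 and Pdia3 at 0.61 above the upper line, and Calr, Atf4 and Hsp90b1 lie below 0 at high signal.

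The members' ratios were also set beside the brightness of their probe sets. The 6 probe sets of the 5 higher members read between 247 and 487 in the control. The 3 lower members read between 1163 and 2213. The control reading is also the denominator of the ratio, so nothing is read from this split. By the mean log2 signal of both arrays, genes were divided into 5 classes from lowest to highest. The higher members lay in classes 1 to 3 and the lower members in class 5. Over all genes the share that was higher went from 57.3% in the lowest of these classes to 40.9% in the highest. The median log2 ratio went from 0.04 to -0.05. The part of this trend in the members' directions was not tested. After lowess Hsp90b1 had a log2 ratio of -0.07, Atf4 of -0.15 and Calr of -0.24. Those of the higher members were 0.10 for Canx, 0.28 for Xbp1, 0.43 for Hspa5, 0.55 for Pdia3 and 1.02 for Impact. Every measured member thus kept its sign.

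**Figure D3:**
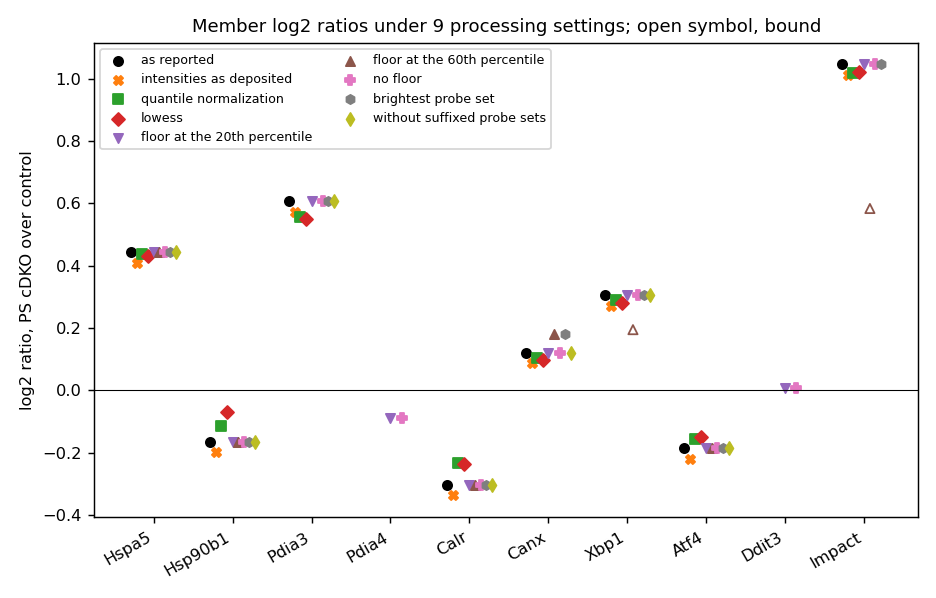
Log2 ratio (PS cDKO over control) of each member under the reported setting (black circle) and 8 alternatives of scaling, floor and probe set choice; open symbols are bounds, with the control at the floor. No measured member changes sign, Impact drops to a bound of 0.58 under the higher of the other floors, at the 60th percentile, and Pdia4 and Ddit3 have values only with a lower floor or none, at -0.09 and 0.01.

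Further genes of the same pathways were described from lists, which were also drawn up with earlier results known; some genes are in more than 1 list. Each list is given by its counts and median, beside the 51.9% of all measured genes that were higher, the 48.1% that were lower and their median of 0.01.

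Other ER chaperones and folding enzymes showed no common direction. Of 27 on the array 16 were measured, 7 higher and 9 lower, with a median log2 ratio of -0.02 that was 0.04 without a floor, and 0 were 1.5-fold or more higher or lower. Ppib (cyclophilin B), a prolyl isomerase of the ER, read 287 on the control and 395 on the PS cDKO array, 1.37-fold higher. Pdia6, a disulfide isomerase, was 1.20-fold and the ER oxidase Ero1a, which reoxidises such isomerases, 1.19-fold higher. The immunophilin Fkbp2 was 1.17-fold lower (1447 against 1237). The general disulfide isomerase P4hb, named after its values were seen, read 2953 and 2890. Among the 11 below the floor on both arrays were Hyou1, Dnajb9, Dnajc3 and Creld2, chaperones and cofactors known as targets of the unfolded protein response and also named after their values were seen.

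All genes with the ER stress response element were then looked up, a step added after the data were seen. There were 35, of which 12 were on the array and 9 measured, the 4 members included. Of the 9, 3 were higher (Hspa5, Pdia6 and Canx) and 6 lower, with a median log2 ratio of -0.08. The 1.5-fold mark was reached by 0 of the 9 in either direction. The lower ones besides Calr and Hsp90b1 were Pan2 at -0.20, Adcy3 at -0.10, Ptgdr2 at -0.08 and Zfp57 at -0.05. Hspa5 had the highest and Calr the lowest ratio of the 9.

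Sensors and factors of the unfolded protein response had 8 of 13 measured genes higher and a median of 0.05. Wfs1 (wolframin), an ER membrane protein that restrains ATF6, read 591 on the control and 847 on the PS cDKO array, 1.43-fold higher. The pro-apoptotic Bak1 was 1.27-fold higher, and Mbtps1, the protease that cleaves ATF6, 1.12-fold higher. Atf3, a stress-induced factor downstream of ATF4, was 1.14-fold lower (784 against 688). Eif2ak3 (PERK) read 263 in the control and was below the floor in the PS cDKO, at least 1.14-fold lower; it was named after its values were seen.

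The eIF2 machinery, on which Impact acts through GCN2, had the lowest median of the 7 further pathway lists, -0.18, a value that is itself the bound of Eif2ak3. Of 11 measured genes 9 were lower and 2 higher. Eif5, the GTPase activator of the eIF2 complex, read 774 on the control and 521 on the PS cDKO array, 1.49-fold lower. The phosphatase catalytic subunit Ppp1cc was 1.32-fold, the eIF2B subunit Eif2b2 1.27-fold and the eIF2 subunit Eif2s3x 1.23-fold lower. The kinase GCN2 itself (Eif2ak4), named after its values were seen, read 446 and 399, 1.12-fold lower and within the SD of 0.21. The higher ones were the kinase Eif2ak1 (HRI) at 1.09-fold and the phosphatase subunit Ppp1cb, which was below the floor in the control and at least 1.52-fold higher; both were named after their values were seen.

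Target genes of ATF4 in amino acid metabolism and stress were evenly divided, 11 higher and 11 lower of 22 measured, with a median of -0.02 that was 0.06 without a floor. Slc7a1, a transporter of cationic amino acids, read 416 and 566, 1.36-fold higher. The mitochondrial folate enzyme Mthfd2 was 1.31-fold, seryl-tRNA synthetase (Sars) 1.23-fold and the pseudokinase Trib3 1.23-fold higher. Asparagine synthetase (Asns), a much used readout of ATF4 and named after its values were seen, read 1528 and 1529.

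The degradation and translocation machinery of the ER also stayed near the median of all genes. ER-associated degradation had 3 of 8 measured genes higher and a median of -0.08. The ubiquitin ligase Marchf6 was 1.16-fold and the p97 cofactor Ufd1 1.11-fold lower. The shuttle factor Rad23b was 1.10-fold lower, with probe sets at -0.29 and 0.01. The mannose-trimming factor Edem2 was 1.15-fold higher. The translocon, signal peptidase and oligosaccharyltransferase genes had 12 of 18 higher and a median of 0.08. In that list Ssr1, of the translocon-associated complex, was 1.34-fold (248 against 331), the signal peptidase subunit Spcs2 1.23-fold and Tram1 1.21-fold higher, and Srp14, of the signal recognition particle, 1.21-fold lower with probe sets at -0.49 and -0.06.

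Cytosolic and mitochondrial chaperones had 11 of 29 measured genes higher and a median of -0.07. The chaperonin subunits Cct6a, Tcp1 and Cct8 were 1.43-fold, 1.41-fold and 1.22-fold lower, and the Hsp70 cofactor Bag1 1.22-fold lower. Both probe sets of Cct6a were lower, at -0.58 and -0.46. Hspa8 and Hsp90aa1, the constitutive Hsp70 and an Hsp90 of the cytosol, read 3141 and 3161, and 2831 and 2882; they were named after their values were seen.

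**Figure D4:**
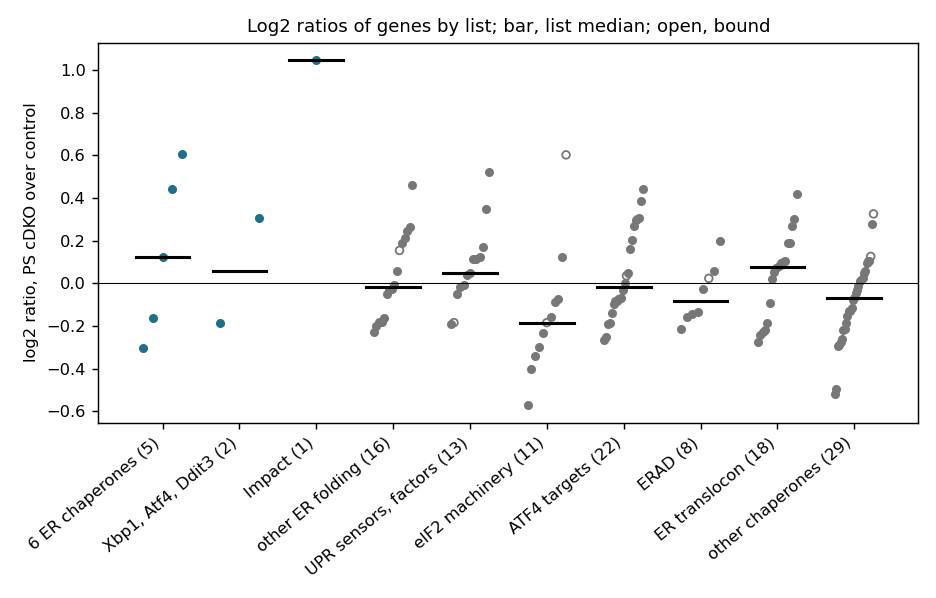
Log2 ratio (PS cDKO over control) of every measured gene in the 3 groups of members (blue) and 7 further pathway lists (grey), with the number measured in brackets, a bar at each list's median and open circles for bounds. The 7 list medians lie between -0.18 for the eIF2 machinery and 0.08 for the ER translocon, and Impact at 1.05 lies above every gene plotted.

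The tissue was a mixture of cells, and in such RNA fewer cells of a type and less RNA per cell cannot be told apart. Marker lists moved between the arrays. Of 12 measured microglia and macrophage markers 11 were higher, with a median of 0.43, and their summed signal went from 5917 to 8524. Of 11 astrocyte markers 8 were higher, with a median of 0.20 and a summed signal of 11935 and 14250. Much of that rise in the sum lay in Gfap, which read 458 and 2145. Among the 3 lower ones were Aldoc, at 3296 and 2777, and Glul, at 2494 and 2317. Of 13 neuron markers 10 were lower, with a median of -0.20 and a summed signal of 19428 and 15947. Oligodendrocyte markers had a median of -0.17 over 6 genes, with 1 higher and 5 lower. Endothelial and mural markers had 3 higher and 3 lower and a median of -0.03, and blood, choroid plexus and meningeal markers 4 higher and 5 lower and a median of -0.03. The part of cell composition in the ratios of Pdia3, Hspa5, Xbp1, Calr and Impact was not tested.

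The examples with the largest ratios in these marker lists were Gfap (4.68-fold higher), the astrocyte protease inhibitor Serpina3n (1.79-fold), C1qa (2.11-fold), the lysosomal protease Ctss (1.79-fold), the neuronal genes Nrgn and Sst (1.49-fold and 1.47-fold lower), the myelin genes Mobp and Cldn11 (1.36-fold and 1.28-fold lower), the vascular genes Cldn5 and Rgs5 (1.35-fold and 1.23-fold lower), and Ttr and Igfbp2 of the choroid plexus and meninges (1.84-fold and 1.60-fold lower). In the list of Ttr and Igfbp2, 4 genes were higher and 5 lower. The higher ones were Folr1, Igf2, Col1a1 and Col1a2, at log2 ratios of 0.10, 0.10, 0.20 and 0.04. The targeted gene Psen2, at 105 and 97.1 on the control and the PS cDKO array, was below the floor and so gave no check of the genotype. The arrays had median intensities of 300 and 305 as deposited, and 59.1% and 60.9% of probe sets were above the floor.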

How the data were processed

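The intensity of each probe set was used as deposited by the authors. Its software, summary method and scaling: not given in the sources used here. The table holds 13 negative intensities for the control and 18 for the PS cDKO. Probe sets were named through the platform annotation, and symbols were updated through gene IDs in a RefSeq table of GRCm38.p6, which held 8237 of 8251 genes. The PS cDKO array was scaled to a median log2 ratio of 0 over probe sets above the median rank on both arrays. Values under the 40th percentile were raised to that percentile before taking log2. A gene is the mean of its probe sets that exceeded this floor on both arrays, or of its bounds otherwise; 5414 genes were measured on both and 471 had a bound. The number of arrays limits the precision.

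The members and lists were chosen with earlier results of these data known. All 10 members were named, with up to 4 genes per pathway list and 2 per marker list with the largest ratios on both arrays; other genes are marked as named after their values were seen. The scripts were tested on simulated data. The alternatives were deposited and quantile-normalized intensities, lowess (span 0.3), other floors (percentile 20 or 60, or none), the brightest probe set, no suffixed probe sets, and thresholds of 0.32 and 1 on the log2 scale. Python 3.11.15, numpy 2.4.6, pandas 2.3.3, statsmodels 0.14.6 and matplotlib 3.10.9 were used.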

Additional observations from a re-analysis of the deposited data

How the results depend on the processing

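No paired analysis was possible because there is 1 array per genotype, and for the same reason no array could be left out. The number of members at least 1.5-fold higher, 2, became 1 with the intensities as deposited, with quantile normalization and after lowess, where Pdia3 fell short. It was also 1 without suffixed probe sets, which removes Impact, and at 2-fold. It was 0 with the floor raised to the 60th percentile, where Pdia3 was below the floor on both arrays and Impact had a bound of 0.58 on the log2 scale. Over all measured genes the number at least 1.5-fold higher, 66, was 157 when the floor was lowered to the 20th percentile, 29 when it was raised to the 60th and 407 without one; it was 474 at a log2 threshold of 0.32 and 6 at 2-fold. The number lower, 48, was 79 under the lowered floor and 166 without one, and 492 at a log2 threshold of 0.32 and 6 at 2-fold. As deposited, 51 were higher and 66 lower. Low signals thus limit these counts. Each of the 8 measured members kept its sign under every alternative that gave it a value, and the median of all genes stayed between -0.02 and 0.04. The median of the chaperones, 0.12, was 0.015 with the lowered floor or none and 0.0072 with the raised one, and that of the factors, 0.06, was 0.0076 and 0.0037. The genes counted differed: Pdia4 and Ddit3 entered with the lowered floor or none. With the raised floor Pdia3 dropped out, Canx rested on its brighter probe set and Xbp1 on a bound. The median of the other ER chaperones ranged from -0.05 to 0.04, that of ATF4 targets from -0.05 to 0.06, and that of ER-associated degradation from -0.13 to -0.00015. The eIF2 machinery ranged from -0.30 to -0.16.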
